A study of Mus musculus with 2 samples.

Results

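The genes described here are 10 secreted activators of Wnt signalling, 7 Wnt ligands (*Wnt2*, *Wnt4*, *Wnt5a*, *Wnt5b*, *Wnt10b*, *Wnt11* and *Wnt16*) and 3 R-spondins (*Rspo1*, *Rspo2* and *Rspo3*), measured in single cells of the mouse periosteum. They were taken by name from the gene list, which holds 23 Wnt and R-spondin genes among 31253 features, and the other 13 are given as a list below. The cells came from the periosteum of femurs and tibias of mice 8 weeks of age and were captured as 2 BD Rhapsody libraries, 1 per genotype. Mice of both genotypes carried Prx1 Cre and 1 copy of Ai9, and the second group was also Piezo1 fl/fl. Prx1 Cre is active in limb mesenchyme, Ai9 turns on a red fluorescent reporter in cells with Cre activity, and *Piezo1* encodes a mechanically gated ion channel. Cre-marked cells were sorted from digested tissue, and cells were thawed before capture. The methods name sex-matched littermates as controls. How many mice gave each library, their sex, and which *Piezo1* exons were floxed are not given in the sources used here. With 1 library per genotype there was no replicate, so no test was made, and genotype, mouse, sort and library cannot be told apart.

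Wnt ligands are lipid-modified glycoproteins that bind Frizzled receptors. With the co-receptors Lrp5 and Lrp6 they stabilise beta-catenin, and with Ror and Ryk receptors they act without it. R-spondins do not start the signal themselves: bound to Lgr4, Lgr5 or Lgr6 they remove the ligases Znrf3 and Rnf43 from the membrane, so that more Frizzled remains there. In bone, Wnt signalling favours osteoblast differentiation, and Wnt16 is known as a ligand that osteoblasts make and that maintains cortical bone.

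The values are unique molecular identifiers (UMIs), each counting 1 captured mRNA molecule, read from the 3′ end of transcripts. The barcodes numbered 6118 (28030299 UMIs) for the control and 7469 (32337308 UMIs) for the Piezo1 fl/fl library. After filtering, 4418 and 5084 cells were kept, with medians of 4812.5 and 4593 UMIs per cell. A total of 50 barcode sequences occurred in both libraries. *Piezo1* itself had 132 UMIs in the kept control cells (5.18 CPM, 95% interval 4.33 to 6.14) and 69 in the Piezo1 fl/fl cells (2.41 CPM, 1.88 to 3.06). Its 3′ tags may lie outside the deleted part, so these counts do not check the labels. Levels are given as CPM, the gene's UMIs scaled to the UMI total of the cells named. All intervals are exact, at 95%, and cover counting error only. Levels are set side by side between classes and libraries of the same gene, not between genes.

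Clusters were found in each library alone, with the 10 genes and their pathway lists left out, and named from marker genes. The classes were SSPC-1-like cells (794 control and 863 Piezo1 fl/fl cells), a skeletal stem/progenitor population with *Col8a1*, *Egfl6*, *Angptl7* and *Itgbl1*, and SSPC-2-like cells (536 and 386) with *Postn*, *Tnn*, *Prss35* and *Lrrc15*. Osteoblast-like cells with *Bglap*, *Dmp1* and *Ifitm5* formed a cluster in the control library (267 cells). In the Piezo1 fl/fl library *Bglap*, *Bglap2* and *Ibsp* were among the leading genes of the SSPC-2-like cluster, so both classes were merged for comparisons between libraries. The others were Pi16 fibroblast-like (503 and 648), Gdf10 fibroblast-like (835 and 922), tendon-like (213 and 569), lining-like with *Prg4* (55 and 124), mural-like (296 and 363) and endothelial-like cells (172 and 141). *Il6*, *Cxcl13* and *Cxcl1*, which are immune genes, led 1 of the control Gdf10 fibroblast-like clusters. Blood cells (396 and 523) and endothelial cells were present in both libraries although the sort was for limb mesenchyme. The thinnest classes were perineurial-like cells (32, control) and chondrocyte-like cells (27, Piezo1 fl/fl). Clusters without a name held 319 and 518 cells.

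The classes were not equally pure in both libraries. The Piezo1 fl/fl SSPC-1-like cluster was named on a narrow margin, with a mean log2 marker ratio of 4.25 for SSPC-1 (6 of 6 detected) and 4.01 for tendon (5 of 6), and none of the SSPC-1 markers was among its 10 leading genes. The 6 SSPC-2 markers summed to 4230 CPM in control and 2122 CPM in Piezo1 fl/fl SSPC-1-like cells, with 6 of 6 present in each (*Postn* 743 and 57.9 CPM, *Tnn* 433 and 49.1 CPM). The SSPC-1 markers summed to 11397 and 8180 CPM there, and the tendon markers to 8207 and 12519 CPM. The tendon-like class differed too, with tendon markers at 43477 CPM in the control and 23598 CPM in Piezo1 fl/fl cells. The Wnt inhibitors *Sfrp4* and *Wif1* stood at 25.4 and 1332.4 CPM in control tendon-like cells, and at 1631 and 120.4 CPM in Piezo1 fl/fl tendon-like cells. Fibroblast-like clusters of the Piezo1 fl/fl library were also named on thin grounds. The *Ccl11*-led cluster (689 cells) was named Gdf10 at a mean log2 ratio of 2.75 (3 of 5 markers), beside 2.18 for Pi16 (4 of 5). The *Slurp1*-led cluster (372 cells) was named Pi16 at 2.66 (4 of 5), where the limit was 2.5. The part of these differences in the results below was not tested, except where a value without the cells in question is given.

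*Wnt16*, *Wnt5a*, *Wnt5b*, *Wnt4* and *Rspo3* had their highest control levels among the named stromal classes of the bone-forming lineage, *Wnt10b*, *Wnt11* and *Wnt2* in Pi16 fibroblast-like cells, *Rspo1* in Gdf10 fibroblast-like cells and *Rspo2* in lining-like cells, leaving aside the small perineurial-like class. Over the 9 classes matched between libraries, 8 of 10 genes were highest in the same class in both, where 57.4% of 12864 genes were. The exceptions were *Wnt16*, highest in SSPC-1-like cells of the control and in SSPC-2 and osteoblast-like cells of the Piezo1 fl/fl library, and *Rspo3*, highest in SSPC-1-like cells of the control and in lining-like cells of the Piezo1 fl/fl library. For *Wnt16* the highest control class depended on the merging of SSPC-2-like and osteoblast-like cells. Taken alone, control osteoblast-like cells stood above SSPC-1-like cells in the clustering reported here.

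**Figure D1:**
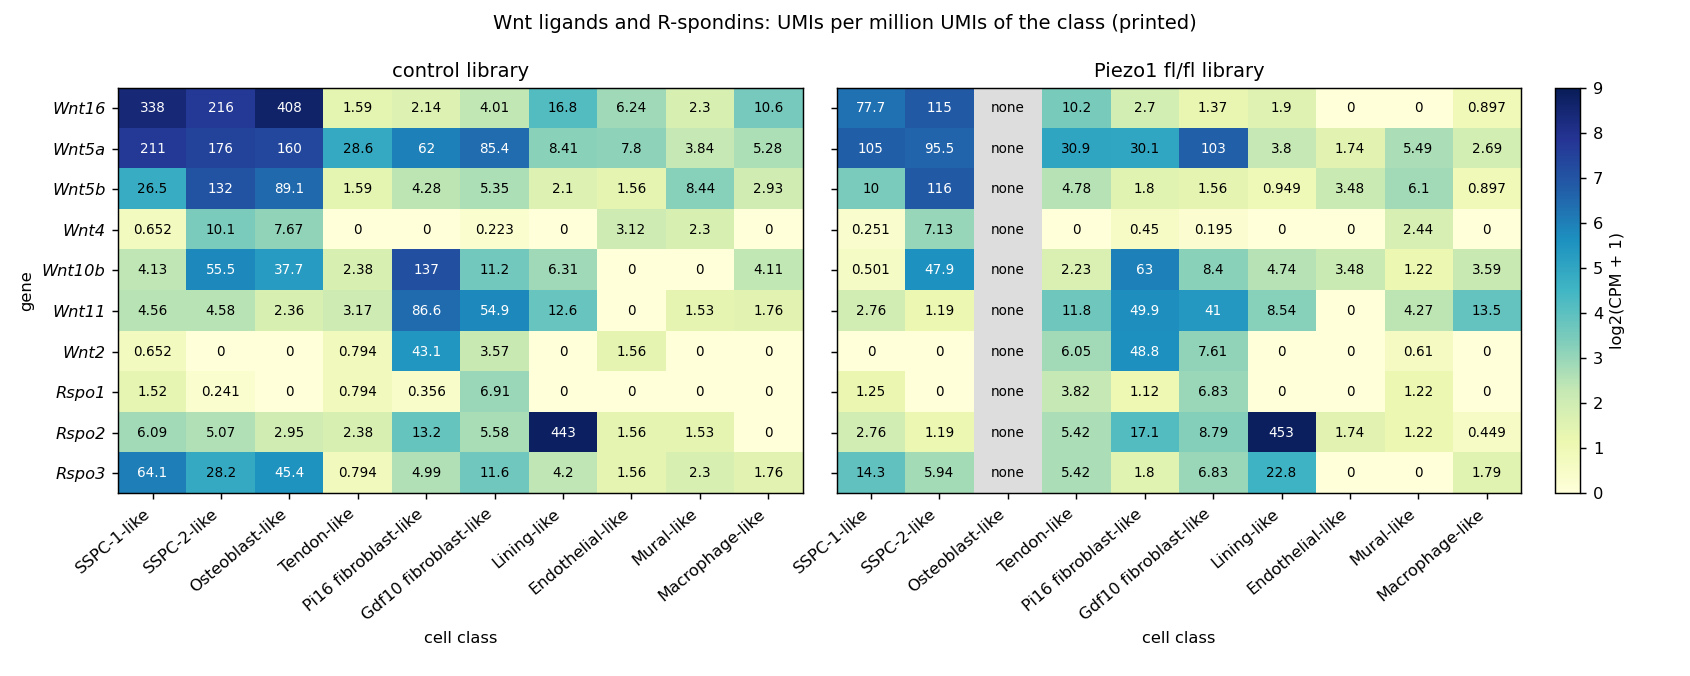
Levels of the 10 genes (rows) in 10 cell classes (columns) of the control and the Piezo1 fl/fl library; the printed number is CPM, the colour is log2(CPM + 1), and grey marks the class with no cluster in that library. *Rspo2* is highest in the lining-like column (443 and 453 CPM), *Wnt16* and *Wnt5b* sit in the bone-lineage columns, and *Wnt2* sits in the Pi16 fibroblast-like column (43.1 and 48.8 CPM).

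*Wnt16* lies on chromosome 6 (chr6:22288227-22298522, plus strand, GRCm38, GENCODE vM21). In the control library its level was 408 CPM (378 to 440) in osteoblast-like cells, followed by SSPC-1-like cells with 338 CPM (321 to 355) and SSPC-2-like cells with 216 CPM (202 to 231). Osteoblast-like cells exceeded SSPC-1-like cells 1.21-fold (1.10 to 1.32) and SSPC-1-like exceeded SSPC-2-like cells 1.56-fold (1.44 to 1.70). The next class, lining-like cells, was 12.8-fold below SSPC-2-like cells (6.49 to 29.8). The place of the osteoblast-like class at the top depended on the clustering, since at resolution 1.2 its level lay below that of SSPC-1-like cells (log2 ratio -1.35). Tendon-like cells of the control had 2 *Wnt16* UMIs in all (1.59 CPM), although their SSPC-1 markers summed to 15323 CPM. Blood cells gave 18 UMIs (10.6 CPM, 6.26 to 16.7), where free RNA, judged by 6 abundant stromal genes, would give 8.50 CPM.

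In the Piezo1 fl/fl library *Wnt16* was lower in both bone-lineage classes. SSPC-1-like cells had 1554 UMIs (338 CPM) in the control and 310 UMIs (77.7 CPM, 69.3 to 86.8) in Piezo1 fl/fl cells, 4.35-fold lower (3.85 to 4.93, log2 ratio -2.12). SSPC-2 and osteoblast-like cells had 1587 UMIs (272 CPM) and 291 UMIs (115 CPM, 102 to 129), 2.36-fold lower (2.08 to 2.68, log2 ratio -1.24). The intervals of the libraries do not overlap in either class. The order of the classes also differed, since SSPC-2-like cells of the Piezo1 fl/fl library exceeded SSPC-1-like cells 1.48-fold (1.26 to 1.75). With SSPC-2-like cells alone, leaving out the control osteoblast-like cluster, the log2 ratio was -0.91 (-1.10 to -0.71). In cells thinned to 2000 UMIs, the share of SSPC-1-like cells with a *Wnt16* UMI was 41.1% in the control and 9.85% in Piezo1 fl/fl cells, and before thinning 57.8% and 16.3%. For SSPC-2-like cells the thinned shares were 35.3% and 20.1%. In blood cells, which were taken as a background for stromal genes, the thinned shares were 0.559% and 0.808%, with median depths of 3678.5 and 4015 UMIs before thinning.

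A cluster of 182 Piezo1 fl/fl cells led by *Grem1*, *Kcnj2* and *Ostn* carried markers of both SSPC classes and took no name. Its *Wnt16* level was 155 CPM (130 to 182), above both named bone-lineage classes of its library. Counting this cluster as SSPC-1-like gave a log2 ratio of -1.88 in SSPC-1-like cells, and counting it as SSPC-2-like gave -1.11 in the other class. Leaving out SSPC-1-like cells with a *Tnn* UMI, which carry SSPC-2 RNA, gave -1.98. These alternatives were added after the data had been seen.

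*Wnt5a* (chr14:28504750-28527448, plus strand) encodes a ligand best known for signalling without beta-catenin. An exon of the antisense gene *Gm2670* overlaps it, and whether the counting used strand is not given in the sources used here. Its control levels were 211 CPM (198 to 225) for SSPC-1-like, 176 CPM (164 to 190) for SSPC-2-like and 160 CPM (142 to 181) for osteoblast-like cells. SSPC-2-like cells were below SSPC-1-like cells (log2 ratio -0.26, -0.40 to -0.12), and SSPC-2-like and osteoblast-like cells did not differ beyond their counting error (1.10-fold, 0.955 to 1.27). Gdf10 fibroblast-like cells followed at 85.4 CPM and Pi16 fibroblast-like cells at 62.0 CPM.

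In SSPC-1-like cells *Wnt5a* had 970 UMIs (211 CPM) in the control and 418 UMIs (105 CPM) in Piezo1 fl/fl cells, a log2 ratio of -1.01 (-1.18 to -0.84). It had, in SSPC-2 and osteoblast-like cells, 1003 UMIs (172 CPM) and 241 UMIs (95.5 CPM), a log2 ratio of -0.85 (-1.06 to -0.64). It was lower in the Piezo1 fl/fl library in both classes. Tendon-like cells had 28.6 and 30.9 CPM (log2 ratio 0.11, -0.45 to 0.71). The *Grem1*-led cluster stood at 158 CPM, above the named bone-lineage classes of its library.

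*Wnt5b* and *Wnt4* separated SSPC-2-like from SSPC-1-like cells. *Wnt5b* (chr6:119432531-119544347, minus strand) stood at 132 CPM (121 to 143) among control SSPC-2-like cells, 4.98-fold above the 26.5 CPM (22.0 to 31.7) of SSPC-1-like cells. In SSPC-2 and osteoblast-like cells its level was 119 CPM (111 to 129, 698 UMIs) in the control and 116 CPM (103 to 130, 292 UMIs) in Piezo1 fl/fl cells, a log2 ratio of -0.05 (-0.25 to 0.15). By counting error alone, this interval leaves room for 1.19-fold at most in the direction of *Wnt16*, which was 2.36-fold lower in these same cells. The merged class holds osteoblast-like cells in the control only, with 89.1 CPM of *Wnt5b*. With SSPC-2-like cells alone *Wnt5b* had 132 CPM (121 to 143) and 116 CPM (103 to 130), and the *Wnt16* difference was smaller, as given above. Over the other settings the *Wnt5b* ratio of the merged class ran from -0.39 to -0.02. In SSPC-1-like cells *Wnt5b* had 122 UMIs in the control and 40 in Piezo1 fl/fl cells (26.5 and 10.0 CPM, log2 ratio -1.40, -1.96 to -0.88). That ratio moved to -0.89 without cells that held a *Tnn* UMI and to -0.32 with the *Grem1*-led cluster counted as SSPC-1-like.

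*Wnt4* (chr4:137277489-137299726, plus strand), a ligand known from female reproductive tract and kidney development, was sparse. It had 42 UMIs in control SSPC-2-like cells (10.1 CPM, 7.30 to 13.7) and 3 in SSPC-1-like cells (0.652 CPM), a 15.5-fold difference. Between the libraries, SSPC-2 and osteoblast-like cells had 55 UMIs (9.42 CPM) and 18 UMIs (7.13 CPM), a log2 ratio of -0.40 with an interval from -1.26 to 0.39. A difference between the libraries was not detectable at this depth.

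Over all 10 genes, 8 had at least 20 UMIs in the 2 control classes SSPC-1-like and SSPC-2-like together. Of these, *Wnt4*, *Wnt5b* and *Wnt10b* were more than 2-fold higher in SSPC-2-like cells, where 5.41% of 11092 genes were, and *Rspo3* was more than 2-fold lower, where 17.9% of genes were.

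**Figure D2:**
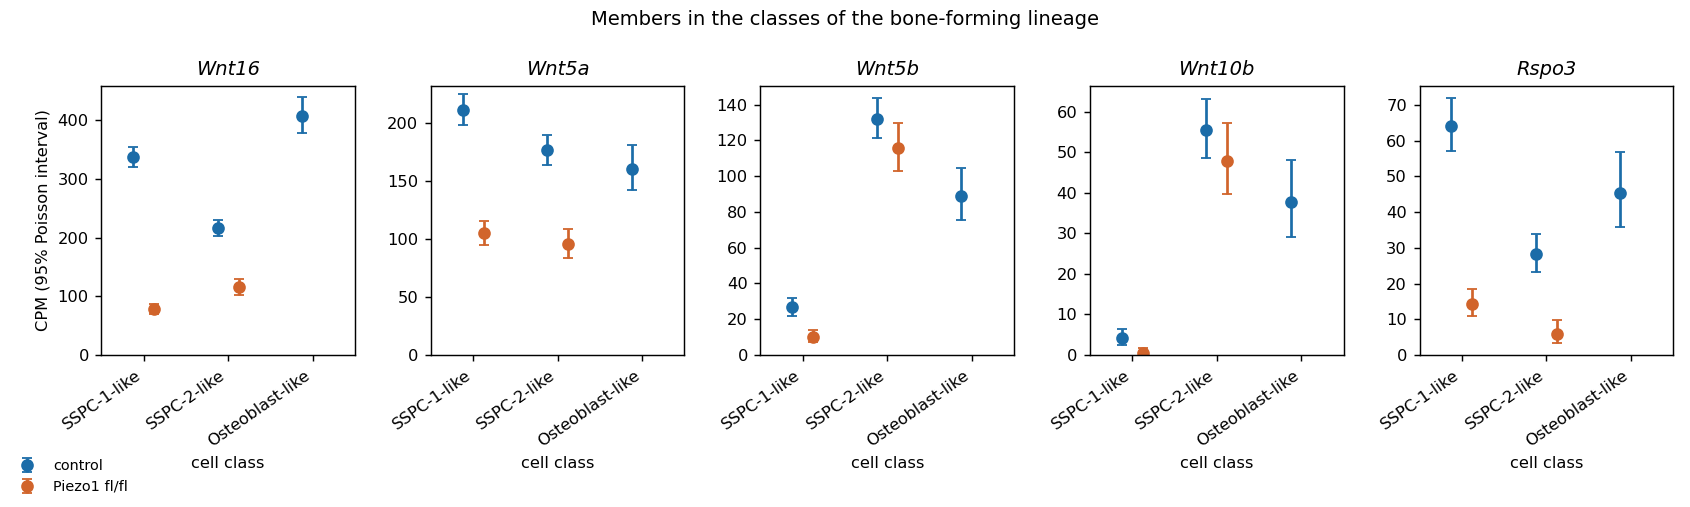
CPM of 5 of the genes in the SSPC-1-like, SSPC-2-like and osteoblast-like cells of each library, with 95% Poisson intervals of the counts; the osteoblast-like class has a control point only. *Wnt16*, *Wnt5a* and *Rspo3* lie lower in the Piezo1 fl/fl library in both of its classes, while *Wnt5b* (132 and 116 CPM) and *Wnt10b* (55.5 and 47.9 CPM) overlap in SSPC-2-like cells.

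*Wnt10b*, a ligand that signals through beta-catenin and is known to hold back adipocyte formation, was found in Pi16 fibroblast-like cells and in the SSPC-2-like and osteoblast-like classes. It lies on chromosome 15 (chr15:98770712-98778150, minus strand). Its control level was 137 CPM (124 to 152) in Pi16 fibroblast-like, 55.5 CPM (48.5 to 63.1) in SSPC-2-like and 37.7 CPM (29.1 to 48.2) in osteoblast-like cells. It was 4.13 CPM (2.49 to 6.45) for SSPC-1-like and 11.2 CPM for Gdf10 fibroblast-like cells. SSPC-2-like cells were 13.4-fold above SSPC-1-like cells. The libraries had in SSPC-2 and osteoblast-like cells 294 UMIs (50.3 CPM) and 121 UMIs (47.9 CPM), a log2 ratio of -0.07 (-0.39 to 0.24). In SSPC-1-like cells they had 19 and 2 UMIs (4.13 and 0.501 CPM, log2 ratio -3.04, -6.19 to -0.99), a ratio that reversed to 0.61 with the *Grem1*-led cluster counted as SSPC-1-like.

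Among Pi16 fibroblast-like cells *Wnt10b* had 385 UMIs (137 CPM) in the control and 280 UMIs (63.0 CPM, 55.8 to 70.8) in Piezo1 fl/fl cells, a log2 ratio of -1.12 (-1.35 to -0.90). Each library had a pair of clusters in this class, and they did not correspond in size or level. In the control, the cluster led by *Pi16* and *Efemp1* (356 cells) had 147 CPM and the one led by *Sema3e* and *Anxa8* (147 cells) 118 CPM. In the Piezo1 fl/fl library, the cluster led by *Pi16* and *Dact2* (276 cells) had 129 CPM and the one led by *Slurp1* and *Sema3e* (372 cells) 29.3 CPM. Between the *Pi16*-led clusters alone, the levels of 147 and 129 CPM lay close together, and the ratio over the class rested on the *Slurp1*-led cluster. At clustering resolutions of 0.4 and 1.2 the ratio reversed to 0.64 and 0.18.

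*Wnt11* (chr7:98835112-98855195, plus strand), a ligand of morphogenetic movements, was a gene of both fibroblast classes. It had 86.6 CPM (76.1 to 98.2) in Pi16 and 54.9 CPM (48.2 to 62.2) in Gdf10 fibroblast-like cells of the control, with 4.56 CPM for the SSPC-1-like and 4.58 CPM for the SSPC-2-like class. The Piezo1 fl/fl fibroblast classes had 49.9 CPM (log2 ratio -0.79, -1.06 to -0.53) and 41.0 CPM (-0.42, -0.69 to -0.15). The clusters again differed, since *Wnt11* stood at 94.8 and 70.8 CPM in the control Pi16 fibroblast-like pair, and at 102 CPM in the *Pi16*-led and 23.5 CPM in the *Slurp1*-led cluster of the Piezo1 fl/fl library. The ratio in the Pi16 class reversed to 0.54 and 0.30 at resolutions 0.4 and 1.2. Among Piezo1 fl/fl Gdf10 fibroblast-like cells, the *Ccl11*-led cluster had 56.5 CPM and the cluster led by *Fmo2* and *Hhip* 4.58 CPM, 12.3-fold less.

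*Wnt2* (chr6:17988940-18030585, minus strand) was highest in Pi16 fibroblast-like cells, which held 63.4% of its control UMIs, with 43.1 CPM (35.8 to 51.5, 121 UMIs) in the control, 12.1-fold above Gdf10 fibroblast-like cells (7.15 to 21.8). An unnamed *Col2a1*-led control cluster stood nearer, at 23.2 CPM (17.1 to 30.9), and held 24.6% of the control UMIs. The Piezo1 fl/fl Pi16 fibroblast-like cells had 48.8 CPM (42.5 to 55.7, 217 UMIs), a log2 ratio of 0.18 (-0.15 to 0.51). No *Wnt2* UMI was found in SSPC-2-like or osteoblast-like cells of either library, which for the control classes allows up to 0.724 and 1.77 CPM at 3 counts. In the control, *Wnt2* and *Wnt5a* divided the pair of Pi16 fibroblast-like clusters in opposite directions. The *Sema3e*-led cluster had 84.3 CPM of *Wnt2* and 9.37 CPM of *Wnt5a*, and the *Pi16*-led cluster had 21.7 CPM of *Wnt2* and 89.4 CPM of *Wnt5a*. The *Wnt2* levels of the Piezo1 fl/fl pair, 52.0 CPM for the *Slurp1*-led and 42.5 CPM for the *Pi16*-led cluster, did not differ beyond counting error, while *Wnt5a* was 2.56-fold higher in the *Pi16*-led one (50.5 against 19.7 CPM).

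*Wnt5a* behaved differently in the 2 fibroblast classes. In Pi16 fibroblast-like cells it had 62.0 CPM (174 UMIs) in the control and 30.1 CPM (134 UMIs) in Piezo1 fl/fl cells, a log2 ratio of -1.04 (-1.38 to -0.71). In Gdf10 fibroblast-like cells it had 85.4 CPM (383 UMIs) and 103 CPM (529 UMIs), a log2 ratio of 0.27 (0.08 to 0.47). Within the Gdf10 class of the Piezo1 fl/fl library, the cluster led by *Fmo2* and *Hhip* (233 cells) had 204 CPM and the *Ccl11*-led cluster (689 cells) 60.4 CPM, whereas the control pair had 82.3 and 89.2 CPM. The level of the class therefore averaged clusters 3.38-fold apart.

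Between the fibroblast classes of the control, 9 of the genes had 20 UMIs or more. More than 2-fold higher in Pi16 than in Gdf10 fibroblast-like cells were *Wnt10b* (12.3-fold), *Wnt2* (12.1-fold) and *Rspo2* (2.37-fold), where 5.53% of 10819 genes were. More than 2-fold lower were *Rspo1* (19.4-fold, on 1 and 31 UMIs) and *Rspo3* (2.32-fold), where 7.55% were.

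**Figure D3:**
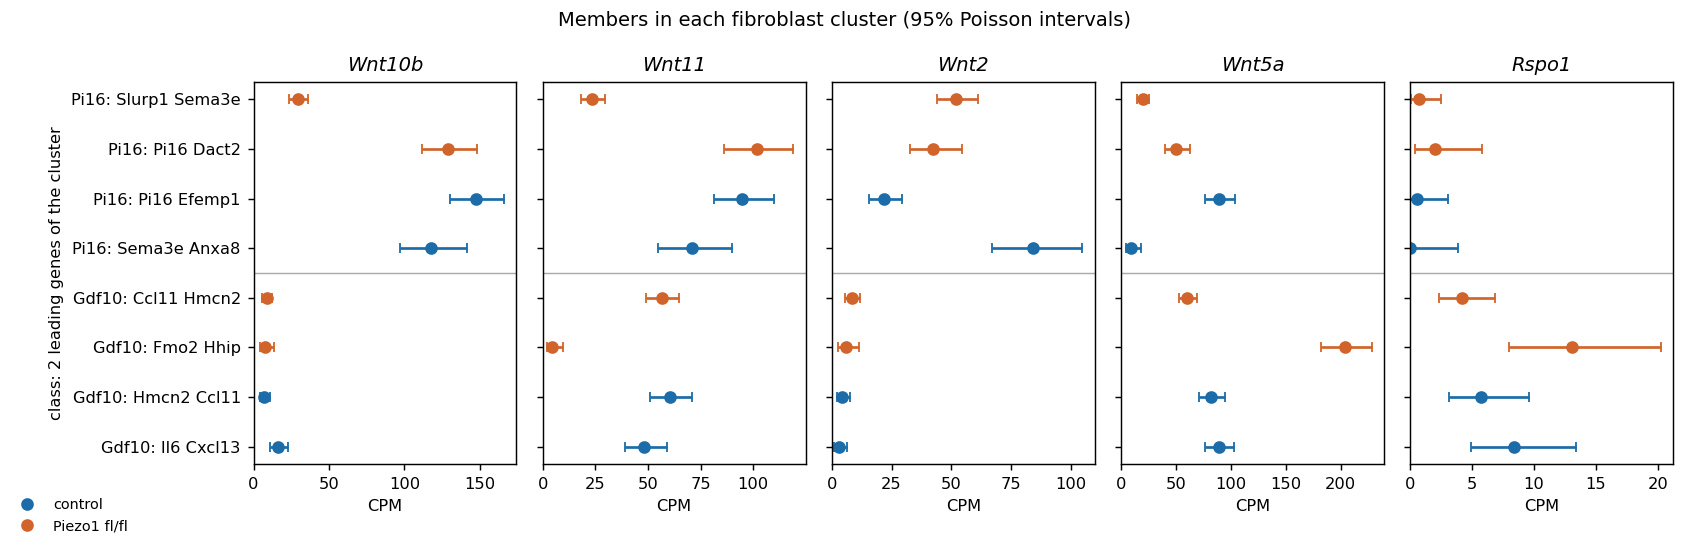
CPM of 5 of the genes with 95% Poisson intervals in each fibroblast-like cluster, named by its class and 2 leading genes; blue is the control and orange the Piezo1 fl/fl library, and the grey line divides the Pi16 from the Gdf10 class. *Wnt10b* and *Wnt11* are low in the *Slurp1*-led cluster (29.3 and 23.5 CPM) and high in the *Pi16*-led clusters of both libraries, and *Wnt5a* is highest in the *Fmo2*-led cluster (204 CPM).

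*Rspo2* (chr15:43020794-43170826, minus strand) had 443 CPM (386 to 508, 211 UMIs) in the 55 control lining-like cells and 453 CPM (413 to 495, 477 UMIs) in the 124 of the Piezo1 fl/fl library, a log2 ratio of 0.03 (-0.21 to 0.27). Among the named classes of more than 50 cells, Pi16 fibroblast-like cells came next in both libraries, 33.6-fold and 26.5-fold below. An unnamed Piezo1 fl/fl cluster led by *Cfd* and *Adipoq* had 31.4 CPM. *Rspo2* was among the 10 leading genes of the control lining-like cluster, although it had been left out of the components. Of all *Rspo2* UMIs, 61.3% and 67.9% lay in lining-like cells, although these cells made up 1.24% and 2.44% of those kept. Over all kept cells, *Rspo2* stood at 13.5 CPM in the control and 24.6 CPM in Piezo1 fl/fl cells, a difference that its class level does not show. The lining markers summed to 143529 and 47377 CPM in this class.

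*Rspo3* (chr10:29452416-29535867, minus strand) belonged with *Wnt16* and *Wnt5a* to the genes lower in Piezo1 fl/fl bone-lineage cells. Exons of the antisense gene *Gm48159* overlap it. In the control it had 64.1 CPM (57.0 to 71.9) among SSPC-1-like cells, 45.4 CPM (35.8 to 56.8) among osteoblast-like cells and 28.2 CPM (23.3 to 33.8) among SSPC-2-like cells. SSPC-1-like cells had 295 UMIs in the control and 57 in Piezo1 fl/fl cells (64.1 and 14.3 CPM), 4.49-fold lower (3.37 to 6.07, log2 ratio -2.17). SSPC-2 and osteoblast-like cells had 194 and 15 UMIs (33.2 and 5.94 CPM), 5.59-fold lower (3.31 to 10.2, log2 ratio -2.48). The libraries' intervals were apart in both classes. Without cells that held a *Tnn* UMI the ratio in SSPC-1-like cells was -2.05, and with the *Grem1*-led cluster (28.3 CPM) counted as SSPC-1-like it was -1.92. With that cluster counted as SSPC-2-like the ratio in the other class was -1.48.

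Outside the bone lineage, the 32 perineurial-like cells of the control had 76 *Rspo3* UMIs (461 CPM). Lining-like cells had 2 in the control (4.203 CPM) and 24 in the Piezo1 fl/fl library (22.8 CPM), a log2 ratio of 2.44 with a wide interval (0.43 to 5.56). Gdf10 fibroblast-like cells had 52 and 35 UMIs (11.6 and 6.83 CPM, log2 ratio -0.76, -1.42 to -0.12). These lay in 32 of 835 control and 16 of 922 Piezo1 fl/fl cells. The most in 1 cell were 6 and 11 UMIs, a spread between cells that the interval does not cover. Within that class *Rspo3* was found in the *Hmcn2*-led and *Ccl11*-led clusters (18.7 CPM in the control, 9.74 CPM in the Piezo1 fl/fl library), with 2.96 CPM in the *Il6*-led control cluster and no UMI in the *Fmo2*-led cluster.

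*Rspo1* (chr4:124986430-125009099, plus strand) was the sparsest R-spondin. Gdf10 fibroblast-like cells had 31 UMIs (6.91 CPM, 4.70 to 9.81) in the control and 35 UMIs (6.83 CPM, 4.76 to 9.50) in Piezo1 fl/fl cells, a log2 ratio of -0.02 (-0.76 to 0.73). They held 55.4% and 55.6% of the gene's UMIs. Among Piezo1 fl/fl cells the *Fmo2*-led cluster had 13.1 CPM and the *Ccl11*-led cluster 4.17 CPM, the same order as for *Wnt5a* and the reverse of that for *Wnt11*.

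The promoters of the ligands that differed between classes were read from RefSeq for GRCm38.p6, which had entries for 7 of the genes and 10 start sites. The 250 bases before the start of 4 are shown 5′ to 3′ on the gene's strand, *Wnt16* (chr6:22287977-22288226, plus strand) because it was lower in Piezo1 fl/fl bone-lineage cells, *Wnt5b* (chr6:119544348-119544597, minus strand) because it was not lower in the same SSPC-2 and osteoblast-like cells, and *Wnt10b* (chr15:98778151-98778400, minus strand) and *Wnt11* (chr7:98834862-98835111, plus strand) because both were highest in Pi16 fibroblast-like cells. Capitals mark matches to CCAAT (or ATTGG) and to the TCF/LEF core CTTTGA (or TCAAAG).
Wnt16: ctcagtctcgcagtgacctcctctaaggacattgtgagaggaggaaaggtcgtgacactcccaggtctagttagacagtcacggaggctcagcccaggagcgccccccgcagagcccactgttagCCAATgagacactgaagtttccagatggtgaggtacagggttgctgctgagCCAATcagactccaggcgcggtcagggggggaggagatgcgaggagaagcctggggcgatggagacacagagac
Wnt5b: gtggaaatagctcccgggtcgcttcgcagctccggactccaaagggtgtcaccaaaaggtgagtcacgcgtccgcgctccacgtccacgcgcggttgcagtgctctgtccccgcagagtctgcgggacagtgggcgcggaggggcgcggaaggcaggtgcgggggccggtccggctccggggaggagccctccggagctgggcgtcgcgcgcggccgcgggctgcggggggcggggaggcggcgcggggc
Wnt10b: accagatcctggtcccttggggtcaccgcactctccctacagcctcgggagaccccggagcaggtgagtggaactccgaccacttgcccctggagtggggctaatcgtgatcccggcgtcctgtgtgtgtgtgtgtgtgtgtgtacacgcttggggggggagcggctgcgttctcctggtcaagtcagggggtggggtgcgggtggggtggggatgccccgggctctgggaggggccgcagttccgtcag
Wnt11: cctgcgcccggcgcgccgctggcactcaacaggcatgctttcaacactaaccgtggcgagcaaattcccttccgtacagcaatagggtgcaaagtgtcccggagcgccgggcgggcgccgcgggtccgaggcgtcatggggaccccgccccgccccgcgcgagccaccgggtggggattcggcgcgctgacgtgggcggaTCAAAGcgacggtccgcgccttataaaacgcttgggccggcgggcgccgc

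The *Wnt16* window held CCAAT in the plus direction 70 and 121 bases before the start, and the *Wnt11* window TCAAAG 45 bases before it. The *Wnt5b* and *Wnt10b* windows shown held neither. The window of another *Wnt5b* start site (chr6:119449387-119449636, minus strand), not shown, held CTTTGA 66 bases before the start. Of the 10 windows, 2 held the TCF/LEF core, where 13.8% of 32851 promoter windows of the same length did, and 2 held CCAAT, where 33.8% did. The core GGAATG (or CATTCC), to which TEAD factors bind, was in 0 of 10 windows and in 12.6% of all. CCAAT was added to the search after the sequences had been seen. A match describes the letters of the window and is not evidence of binding, and its absence says nothing of more distant sequence.

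The comparison of libraries was then read over all genes of the set that had at least 20 UMIs in a class. In SSPC-1-like cells 7 qualified, and 6 were more than 2-fold lower in the Piezo1 fl/fl library (*Wnt16*, *Rspo3*, *Wnt5a*, *Wnt5b*, *Wnt10b* and *Rspo2*), where 5.09% of 11114 genes were, and 0 were higher, where 2.3% were. *Wnt5a* lay at the limit, 2.01-fold lower, and *Rspo2* rested on 28 and 11 UMIs. With the *Grem1*-led cluster counted as SSPC-1-like, the ratio of *Wnt10b*, on few UMIs, reversed to 0.61 and that of *Wnt5b* moved to -0.32. The *Wnt10b* ratio also reversed at resolution 0.4. In SSPC-2 and osteoblast-like cells 4 of 8 were lower (*Wnt16*, *Rspo3*, *Wnt11* and *Rspo2*), where 2.87% of 10643 genes were, and 0 were higher, where 2.64% were. *Wnt11* and *Rspo2* had 3 UMIs each in the Piezo1 fl/fl cells there, and with marker scores in place of clusters their ratios turned to 0.26 and 1.40. With SSPC-2-like cells alone 3 of 8 were lower, without *Wnt16*. In Pi16 fibroblast-like cells 4 of 7 were lower (*Wnt10b*, *Wnt5a*, *Wnt5b* and *Rspo3*), where 4.33% of 10495 genes were, and 0 were higher, where 2.42% were. *Wnt5b* rested there on 12 and 8 UMIs and *Rspo3* on 14 and 8. Other clustering resolutions turned the ratios of *Wnt10b* (0.64 at 0.4), *Rspo3* (0.082 at 0.4) and *Wnt5b* (0.29 at 1.2). The median log2 ratio of all genes in that class was -0.11, and the ratios stand against that value.

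In Gdf10 fibroblast-like cells 2 of 9 were lower (*Wnt5b*, on 24 and 8 UMIs, and *Wnt16*, on 18 and 7 UMIs), where 3.05% of 11159 genes were, and *Wnt2* was higher (16 and 39 UMIs, log2 ratio 1.09), where 1.6% were. The *Wnt16* level there lay below the level that free RNA would give in each library (8.50 CPM in the control and 2.01 CPM in the Piezo1 fl/fl library). The tendon-like class went the other way. Of 5 genes with 20 UMIs, 0 were lower, where 5.39% of 9580 genes were, and 4 were higher (*Wnt16*, *Wnt11*, *Wnt2* and *Rspo2*), where 7.17% were. *Wnt16* had 2 and 32 UMIs there (1.59 and 10.2 CPM, log2 ratio 2.68, 0.71 to 5.79), and this ratio reversed to -1.69 when cells were assigned by marker scores in place of clusters. Over the 9 classes, 42 pairs of a gene and a class had 20 UMIs. In 17 the level was more than 2-fold lower in the Piezo1 fl/fl library, where 3.67% of 86287 such pairs over all genes were, and in 7 it was higher, where 3.77% were. The lower pairs include *Wnt16* in blood cells (10.6 and 2.97 CPM), which did not exceed the free RNA level beyond counting error in either library. The part of free RNA in these counts was not tested. Pairs of the same gene share that gene's position and counting, and so are not independent.

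**Figure D4:**
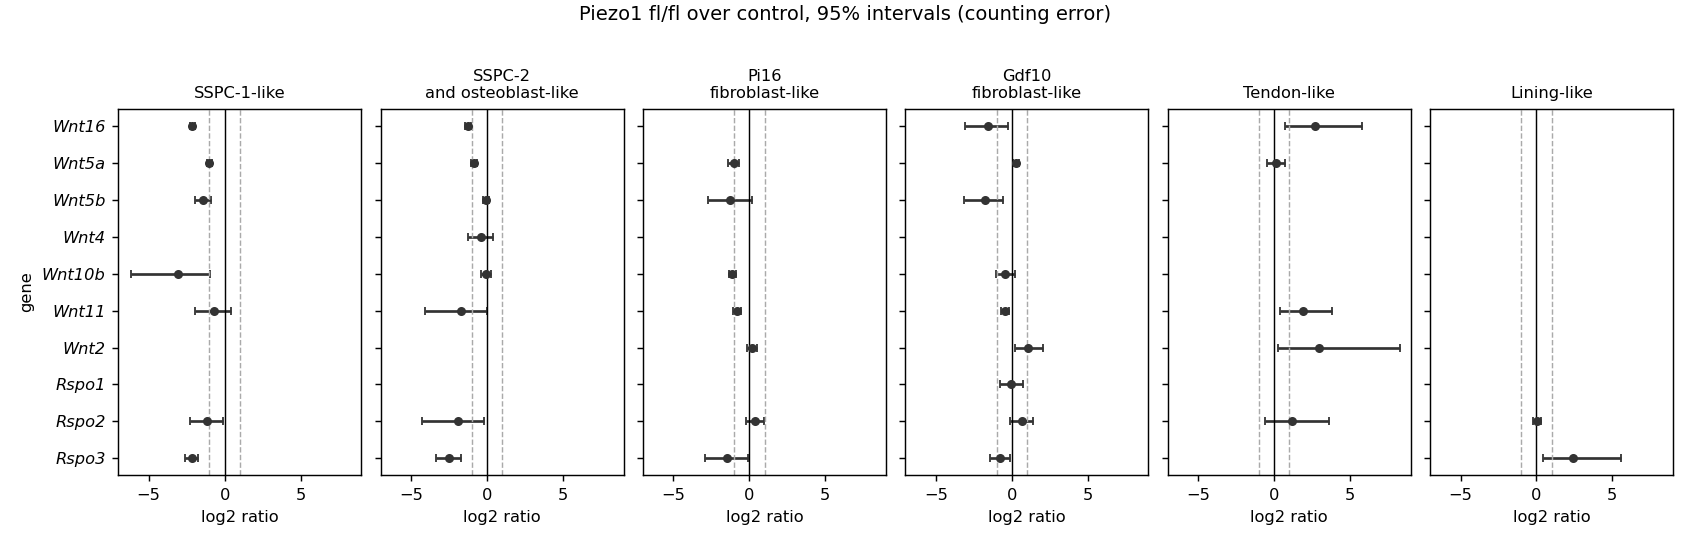
Log2 ratio of CPM, Piezo1 fl/fl over control, of each gene with at least 20 UMIs in the class, with exact 95% intervals for counting error; the solid line is no difference and the dashed lines are 2-fold. *Wnt16* (-2.12 and -1.24) and *Rspo3* (-2.17 and -2.48) lie left of the dashed line in the first and second panels, *Wnt5b* (-0.05) and *Wnt10b* (-0.07) lie at 0 in the second panel, and *Rspo2* lies at 0.03 in lining-like cells.

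Filtering, clustering and naming were varied in 11 other settings, of which 11 gave a value for SSPC-1-like and 10 for the other classes named next. The log2 ratio of *Wnt16* ran from -2.32 to -1.54 in SSPC-1-like and from -1.55 to -0.71 in SSPC-2 and osteoblast-like cells, that of *Rspo3* from -2.24 to -1.88 and from -2.48 to -1.12, and that of *Wnt5a* from -1.05 to -0.61 and from -0.998 to -0.53. These ratios stayed below 0. *Rspo2* in lining-like cells stayed between -0.12 and 0.11. The ratios of *Wnt10b* and *Wnt11* in Pi16 fibroblast-like cells crossed 0.

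**Figure D5:**
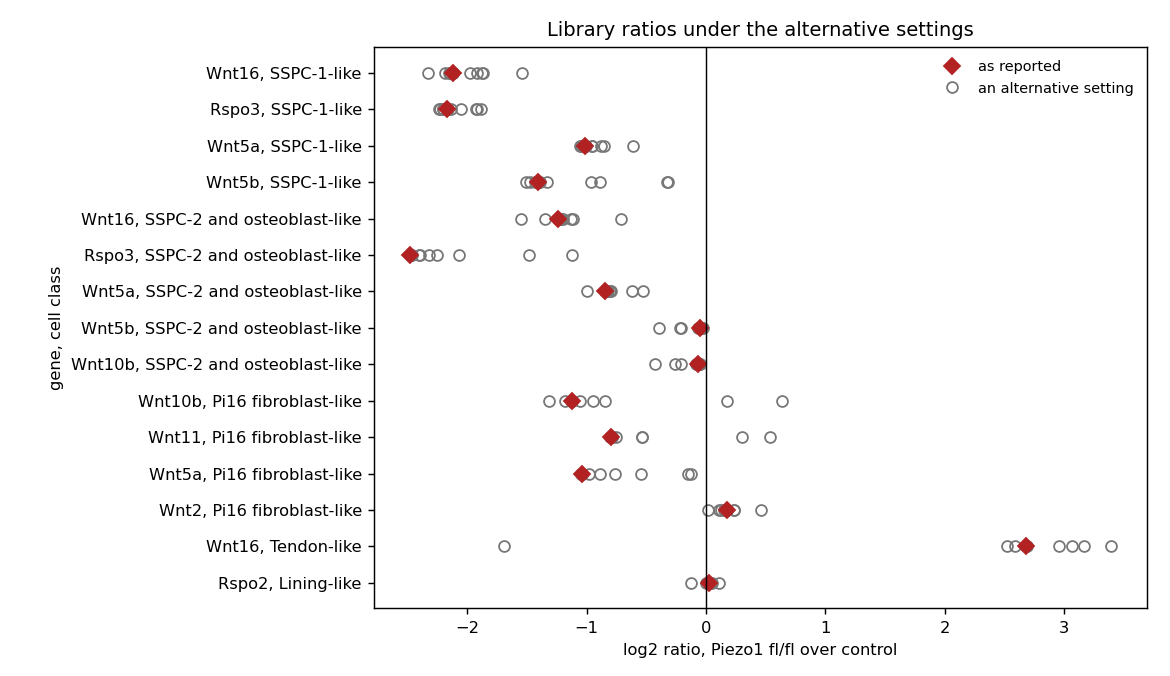
Log2 ratio of CPM, Piezo1 fl/fl over control, of 15 pairs of a gene and a class as reported (red diamond) and under each other setting (open circle). All circles of *Wnt16*, *Rspo3* and *Wnt5a* in the SSPC-1-like and the SSPC-2 and osteoblast-like rows lie left of 0, those of *Wnt10b* and *Wnt11* in Pi16 fibroblast-like cells lie on both sides, and 1 circle of *Wnt16* in tendon-like cells (-1.69) is reversed.

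The genes that act with these ligands were followed by lists. Their ratios were not recomputed under the other settings of filtering, clustering and naming. *Wls* and *Porcn*, which escort and acylate Wnt proteins for secretion, had 283 and 20.6 CPM in control and 191 and 11.5 CPM in Piezo1 fl/fl SSPC-1-like cells (log2 ratios -0.57 and -0.84). *Wls* in SSPC-2 and osteoblast-like cells had 603 and 549 CPM. Neither of these genes passed 2-fold in a class shown here.

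Among the Wnt receptors, 15 of 16 had 20 UMIs in SSPC-1-like cells, 1 was more than 2-fold lower, where 5.09% of all genes were, and 0 were higher, with a median log2 ratio of -0.13 beside -0.07 over all genes. The lower gene was *Ptk7*, a co-receptor of planar cell polarity (27.4 and 13.5 CPM, log2 ratio -1.02). The co-receptor *Lrp5* had 157 and 84.7 CPM (-0.89) and *Ror2*, a receptor of Wnt5a, 32.8 and 18.8 CPM (-0.80), while *Fzd1* had 418 and 551 CPM (0.40). In SSPC-2 and osteoblast-like cells 14 had 20 UMIs and 0 passed 2-fold in either direction.

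Of the R-spondin receptors and their ligases, 3 of 5 had 20 UMIs in SSPC-1-like cells, and 2 were more than 2-fold higher in the Piezo1 fl/fl library, where 2.3% of all genes were. *Lgr4* had 19.8 CPM in the control and 57.1 CPM in Piezo1 fl/fl cells (log2 ratio 1.53, 1.17 to 1.90), and *Lgr5* had 29.99 and 78.2 CPM (1.38, 1.09 to 1.68). The ligase *Znrf3* had 19.8 and 17.8 CPM. *Lgr6* was higher in SSPC-2 and osteoblast-like cells (2.91 and 9.11 CPM, log2 ratio 1.65), where the list's median was -0.22.

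Of the response genes of beta-catenin signalling, 5 of 9 had 20 UMIs in SSPC-1-like cells, and 2 were more than 2-fold lower, where 5.09% of all genes were, *Nkd1* (36.3 and 17.3 CPM, log2 ratio -1.07) and *Tnfrsf19* (40.6 and 14.3 CPM, -1.51). *Axin2*, the feedback inhibitor most often used as a readout, had 37.6 and 30.6 CPM (-0.30, -0.64 to 0.04), and *Nkd2* had 79.5 and 123 CPM (0.63). For SSPC-2 and osteoblast-like cells 6 had 20 UMIs and 0 passed 2-fold, with a median of -0.32. In tendon-like cells *Apcdd1* and *Tnfrsf19* were more than 2-fold lower, where 5.39% of all genes were. *Tnfrsf19* was also lower in Gdf10 fibroblast-like cells, where 3.05% were, and 0 were lower in Pi16 fibroblast-like cells, where 4.33% were.

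Of the secreted inhibitors, 7 of 11 had 20 UMIs in SSPC-1-like cells and 0 passed 2-fold, with *Sfrp4* at 1004 and 577 CPM (-0.80) and *Dkk3* at 576 and 309.5 CPM (-0.90). In SSPC-2 and osteoblast-like cells *Frzb* was lower (28.4 and 8.71 CPM, -1.71), and *Sfrp4* (164 and 414 CPM, 1.33) and *Wif1* (7.70 and 20.6 CPM, 1.42) were higher, beside 2.87% lower and 2.64% higher of all genes. In Piezo1 fl/fl Pi16 fibroblast-like cells *Sfrp4*, *Dkk3* and *Frzb* were more than 2-fold higher, where 2.42% of all genes were. None was lower there, where 4.33% were. In Gdf10 fibroblast-like cells *Sfrp4* was higher, where 1.6% were, and *Dkk2* (369.6 and 171 CPM) and *Wif1* were lower, where 3.05% were. In tendon-like cells *Sfrp4* and *Sfrp1* were higher, where 7.17% were, and *Wif1* was lower, where 5.39% were. *Frzb* and *Wif1* thus went in opposite directions in different classes.

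Of the 13 other Wnt and R-spondin genes, 1 had 20 UMIs in SSPC-1-like cells, *Wnt9a*, with 148 and 99.2 CPM (log2 ratio -0.58). Genes that respond to tissue dissociation were measured beside these lists. In SSPC-1-like cells 11 of 11 had 20 UMIs and 0 passed 2-fold, with a median of 0.39, and in Pi16 fibroblast-like cells 1 was lower (*Egr1*) with a median of -0.76. Their part in the differences of the ligands was not tested.

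The genes with the most similar pattern over 10 control classes were ranked by the correlation of log2(CPM + 10), among 8763 genes. For *Wnt16* these were *Fgfr2*, *Grem1* and *Ostn* (r = 0.99, 0.98 and 0.97), with 0.95, 0.73 and 0.79 in the Piezo1 fl/fl library. For *Wnt5a* they were *Gxylt2*, *Cpxm1* and *Itm2a* (r = 0.96 each), for *Wnt5b* *Grb14*, *Dlg2* and *Podnl1* (r = 0.97, 0.97 and 0.96) and for *Wnt4* *Sh3pxd2a*, *Plekhg4* and *Pawr* (r = 0.93 each). For *Wnt10b* the first was *Igsf1* (r = 0.98), for *Wnt11* *Nova1* (0.97) and for *Wnt2* *Rorb* (0.99). *Itgb8* came first for *Rspo2* (r = 0.96, and 0.97 in the Piezo1 fl/fl library). *Rspo3* was most like *Csrnp3*, *Slit2* and *Shisal1* (r = 0.97, 0.96 and 0.95), genes with r of 0.36, 0.44 and 0.34 to it in the Piezo1 fl/fl library. The Piezo1 fl/fl values were taken over 10 classes of that library, and these were not the same 10 classes. They held blood cells other than macrophages in place of osteoblast-like cells, and left out the unnamed *Grem1*-led cluster. That cluster had *Grem1*, *Ostn*, *Shisal1*, *Slit2* and *Fgfr2* among its leading genes. The part of these unlike classes in the lower r was not tested. The points are classes of 1 library that share its depth, so these values are descriptions.

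Within classes, cells with and without a UMI of another ligand were compared after thinning. In control SSPC-1-like cells *Wnt16* was found in 48.6% of the 210 cells with a *Wnt5a* UMI and in 38.3% of those without. In control SSPC-2-like cells the shares were 45.1% and 31.4%. *Wnt5b* showed no such excess there, with *Wnt16* in 34.2% of cells with and 35.6% of cells without it. In Pi16 fibroblast-like cells *Wnt11* was found in 7.26% of the 124 control cells with a *Wnt10b* UMI and 15.6% of those without, and in 21.5% of the 93 such Piezo1 fl/fl cells and 10.3% of those without. These shares rest on 9 control and 20 Piezo1 fl/fl cells with both. The Piezo1 fl/fl class joins a *Pi16*-led cluster higher in both genes and a *Slurp1*-led cluster lower in both. The part of this mixture was not tested.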

How the data were processed

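BD Rhapsody whole-transcriptome libraries from sorted periosteal cells, 1 control and 1 Piezo1 fl/fl, were analysed from the matrices the authors deposited, which hold raw UMI counts per gene and cell barcode without normalization. Per the labels the authors used fastp, UMI-tools, STAR and Seurat 4.0.3. The genome build, annotation and strand setting of the counts are not given in the sources used here. Of 31253 feature identifiers, 31107 were found in GENCODE vM21 (GRCm38), 30203 of them under the same symbol.

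The libraries were clustered separately. Kept barcodes had 1000 to 5000 genes and less than 25% of UMIs from mitochondria, and Scrublet doublets were removed (expected rate 0.05, 46 barcodes or 0.829% in the control, 67 or 0.988% in the Piezo1 fl/fl library). Genes in fewer than 10 cells were removed. Seurat 5.3.0 (R 4.3.3) then applied log normalization, 2000 variable features (vst), 30 principal components without 77 Wnt pathway and related genes, a graph on 20 components and clustering at resolution 0.8. A marker was detected in a cluster with a UMI in at least 10% of cells and at least 2 times the median CPM of the other clusters. A class name needed 3 detected markers, a mean log2 ratio of 2.5 and a gap of 0.5 to the next class, or, within that gap, a larger share of its markers detected or at least 2 of them, and more than of any other class, among the 10 leading genes. A name was withheld where a class within 1 had all its markers detected, unless the leading genes favoured the name. It was also withheld where another class had more markers among the leading genes, or where at least 3 cycling genes were among them. The first of these left the *Grem1*-led cluster unnamed (SSPC-2 at 3.66 with 5 of 6 markers, SSPC-1 at 2.87 with 6 of 6). These thresholds were set after the clusters had been seen. SSPC-2-like and osteoblast-like cells were merged between libraries because the Piezo1 fl/fl library had no separate osteoblast-like cluster.

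UMIs were summed per class and divided by the class total. Poisson, conditional (ratios) and Clopper-Pearson (shares) intervals are exact, at 95%, for counting error only. A count of 0 was read as under 3 counts. A gene was compared with at least 20 UMIs over both groups and classes of at least 50 cells, and 2-fold was judged with 0.5 UMIs added. For shares, cells were thinned to 2000 UMIs, which left out 141 control and 147 Piezo1 fl/fl cells. All 10 genes are reported. Genes of the fixed lists are reported where they passed 2-fold in SSPC-1-like or in SSPC-2 and osteoblast-like cells, or are usual readouts. Those that passed 2-fold in other classes are reported only in part. Of the 3 genes most like each member, all or the first are reported. Those most like *Rspo1* are not reported here. The scripts were tested on simulated data. The genes and lists were chosen with earlier results of these data known. Python 3.11.15, numpy 2.4.6, scipy 1.17.1, pandas 2.3.3, scanpy 1.11.5 and matplotlib 3.10.9 were used.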

Additional observations from a re-analysis of the deposited data

Results flagged for a closer look

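The log2 ratios between the libraries pointed in opposite directions in different classes for 4 genes. For *Wnt5a*, Gdf10 fibroblast-like (0.27) and Pi16 fibroblast-like cells (-1.04) were 1.32 apart on the log2 scale. For *Wnt16*, tendon-like (2.68) and SSPC-1-like cells (-2.12) were 4.80 apart, with 2 UMIs in control tendon-like cells. For *Rspo3*, lining-like (2.44) and SSPC-2 and osteoblast-like cells (-2.48) were 4.92 apart, with 2 UMIs in control lining-like cells. For *Wnt11*, blood (2.71) and SSPC-2 and osteoblast-like cells (-1.73) were 4.44 apart, and 28 of the 31 UMIs in Piezo1 fl/fl blood cells lay in 1 macrophage cluster led by immunoglobulin and hemoglobin genes. These differences were not tested, since each group was 1 library.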

How the results depend on the processing

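No paired analysis was possible because each genotype had 1 library. Levels, class ratios and library ratios of the 10 genes, but not of the lists, were recomputed under 11 other settings, 8 set beforehand and 3 added after seeing the data. A ratio whose interval left out 0 counted as reversed when its sign turned, which 10 of 405 recomputed library ratios and 1 of 194 class ratios did. Ratios with 0 in their interval could also turn, as *Wnt5b* in Pi16 fibroblast-like cells (0.29 at resolution 1.2), *Wnt5a* in tendon-like cells (down to -0.74) and *Rspo1* in Gdf10 fibroblast-like cells (up to 0.97). Over all classes, the 17 ratios more than 2-fold lower numbered 10 at resolution 0.4 and 11 at resolution 1.2, and the 7 more than 2-fold higher numbered 4 with a wider window of genes per cell (from 500), 3 at resolution 1.2 and 1 with marker scores. The count of genes highest in the same class ran from 7 to 9. Reversed at resolution 0.4 were *Wnt10b* in SSPC-1-like cells (0.58) and, in Pi16 fibroblast-like cells, *Wnt10b* (0.64), *Wnt11* (0.54) and *Rspo3* (0.082). At resolution 1.2 *Wnt10b* (0.18) and *Wnt11* (0.30) reversed in Pi16 fibroblast-like cells, and so did *Wnt16* in control osteoblast-like over SSPC-1-like cells (-1.35). With marker scores *Wnt11* (0.26) and *Rspo2* (1.40) reversed in SSPC-2 and osteoblast-like cells and *Wnt16* (-1.69) in tendon-like cells. With the *Grem1*-led cluster as SSPC-1-like, *Wnt10b* reversed there (0.61). The cause was not tested. Depth limits *Wnt4*, *Rspo1* and most genes in lining-like, mural-like and endothelial-like cells. Levels in classes of 1 library carry no estimate of the spread between mice.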

Other observations

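Small or unnamed clusters held further ligand sources. The 32 perineurial-like cells of the control, a type that sheathes nerve bundles, had 461 CPM of *Rspo3* (363 to 577, 76 UMIs), 164 CPM of *Wnt5a* (108 to 238, 27 UMIs) and 42.5 CPM of *Rspo1* (17.1 to 87.5, 7 UMIs). The same cells had *Wnt9a* (674 CPM), *Wnt10a* (340 CPM, 56 UMIs) and *Wnt6* (85.0 CPM), and *Wnt10a* was among their 10 leading genes. The Piezo1 fl/fl library had no such cluster.

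The 27 chondrocyte-like cells of the Piezo1 fl/fl library had 48.7 CPM of *Wnt5b* (25.2 to 85.1, 12 UMIs), 44.6 CPM of *Wnt11* (22.3 to 79.9, 11 UMIs), 20.3 CPM of *Wnt4* (5 UMIs) and 304 CPM of the R-spondin receptor *Lgr6*. A *Col2a1*-led control cluster of 299 cells, which took no name, had 23.2 CPM of *Wnt2*. A Piezo1 fl/fl cluster of 336 cells led by *Cfd* and *Adipoq*, genes of adipocytes, had 44.8 CPM of *Wnt11* and 31.4 CPM of *Rspo2*.

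Blood cells served as a measure of free RNA. A set of stromal genes stood there at 6.71% (control) and 6.95% (Piezo1 fl/fl) of its level over all kept cells, and the same share of each gene's level over all cells was taken as the level of free RNA. Of the 10 genes, *Wnt11* (11.5 CPM, 7.83 to 16.3, against 1.56 CPM) and *Wnt10b* (3.72 CPM, 1.78 to 6.83, against 1.30 CPM) exceeded this level in Piezo1 fl/fl blood cells, and none of the 10 did in the control.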
